A study of Mus musculus with 6 samples.

Results

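The genes described here are 39 genes of DNA damage sensing and repair, measured by bulk RNA-Seq in gastrocnemius/plantaris (GP) muscle of the mouse. They were taken by symbol from tables that list 24421 genes, and all 39 were found. Brca1 had too few counts to be tested, which left 38. The study asked what loss of Net39, a protein of the nuclear envelope of muscle, does to adult muscle, and damage to DNA was among its readouts. Its groups were 3 mice labelled Ctrl and 3 labelled cKO. By the study's description, Ctrl mice were Net39 fl/fl without Cre and cKO mice were HSACreERT2;Net39 fl/fl. Both groups carried the floxed alleles, received tamoxifen and were male. The labels give the strain background as B6C3F1, and the study's methods add a cross of the founders to C57BL/6N and the cross to the Cre line. Muscle was taken at 5 months of age, 3 months after tamoxifen. CreERT2 was driven by the human skeletal actin promoter, which per the study's methods is not active in satellite cells or the heart.

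Damage to DNA is sensed by kinases and enzymes that bind breaks, and it is repaired along routes that differ by the kind of lesion. ATM and DNA-PK respond to double-strand breaks, ATR responds to exposed single-stranded DNA, and PARP1 marks nicks and breaks with chains of ADP-ribose. Muscle fibres do not divide, so they rely on end joining and excision repair more than on homologous recombination, which uses the sister chromatid copied during replication.

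Net39, listed under its older symbol Ppapdc3, went against the labels. It was measured at 7.92, 7.75 and 5.93 CPM in the Ctrl-labelled libraries and at 151, 113 and 138 CPM in the cKO-labelled ones, replicates 1, 2 and 3 in this order here and below, where a library is named as Ctrl 1 or cKO 1. CPM are counts scaled to a library of equal size, 1000000 counts, with edgeR's TMM factors. The log2 fold change was 4.22 ± 0.17 (SE, n = 3 per group), 18.6-fold higher in the cKO-labelled libraries (edgeR quasi-likelihood test, adjusted p = 0.000161, exact two-sided permutation test of CPM p = 0.1, the smallest that 3 against 3 libraries allow). The loxP sites flank exon 1, and the deposited counts are per gene. The labels were kept as given, and every direction below is stated for the labelled groups, which the targeted gene contradicts.

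Total counts were 33860001 to 38201728 in the Ctrl-labelled libraries and 39191239 to 48839910 in the cKO-labelled ones. TMM factors were 1.08 to 1.11 in the first and 0.865 to 0.983 in the second group, so the scaling differed with the label. Markers of muscle fibres, most of them genes of fast fibres, were abundant, with summed levels of 123287 to 155265 CPM in the Ctrl-labelled libraries and 203964 to 261022 CPM in the cKO-labelled ones. Slow fibre markers summed to 8588 to 14742 CPM in the Ctrl-labelled libraries and to 468 to 3926 CPM in the others. Macrophage markers summed to 247 to 269 CPM and to 121 to 154 CPM in the same order. The part of these shifts in the values below was not tested. In bulk muscle, fewer cells of a type and less RNA per cell cannot be told apart.

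Among the 38 genes tested, 8 were higher in the cKO-labelled libraries at an adjusted p under 0.05, which is 21.1% of them against 12.6% of all 14180 genes tested. These were Polk, Parp1, Xrcc5, H2afx, Lig4, Xpa, Apex1 and Lig3. Ddb2 was the 1 gene higher in the Ctrl-labelled libraries, 2.63% against 11.8% of all genes. The other 29 did not pass. No gene of the 38 also exceeded the fold change of 2 that the study used for its calls, a mark that 6.05% of all genes passed in either direction, and the folds of the 9 lay between 1.32 and 1.79. At an unadjusted p under 0.05, 11 were higher in the cKO-labelled libraries (28.9%, against 19.2% of all genes) and 2 in the Ctrl-labelled ones (5.26%, against 19.6%).

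The whole set was spread around a value close to that of the other genes. Its median log2 fold change, labelled cKO over labelled Ctrl, was 0.10, and that of all genes was -0.02. In 20 of the 38 the log2 fold change was under 0.25 in size. For 22 of the 29 genes that did not pass, the 95% interval of the difference lay within a fold of 1.5. Neither count was made for all genes, but the median size of the log2 fold change was 0.22 in the 38 and 0.27 in all genes. CPM did not overlap between the groups in 12 genes higher in the cKO-labelled libraries (31.6%, against 22.0% of all genes) and in 6 higher in the Ctrl-labelled ones (15.8%, against 21.9%). The other 20 genes overlapped.

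**Figure D1:**
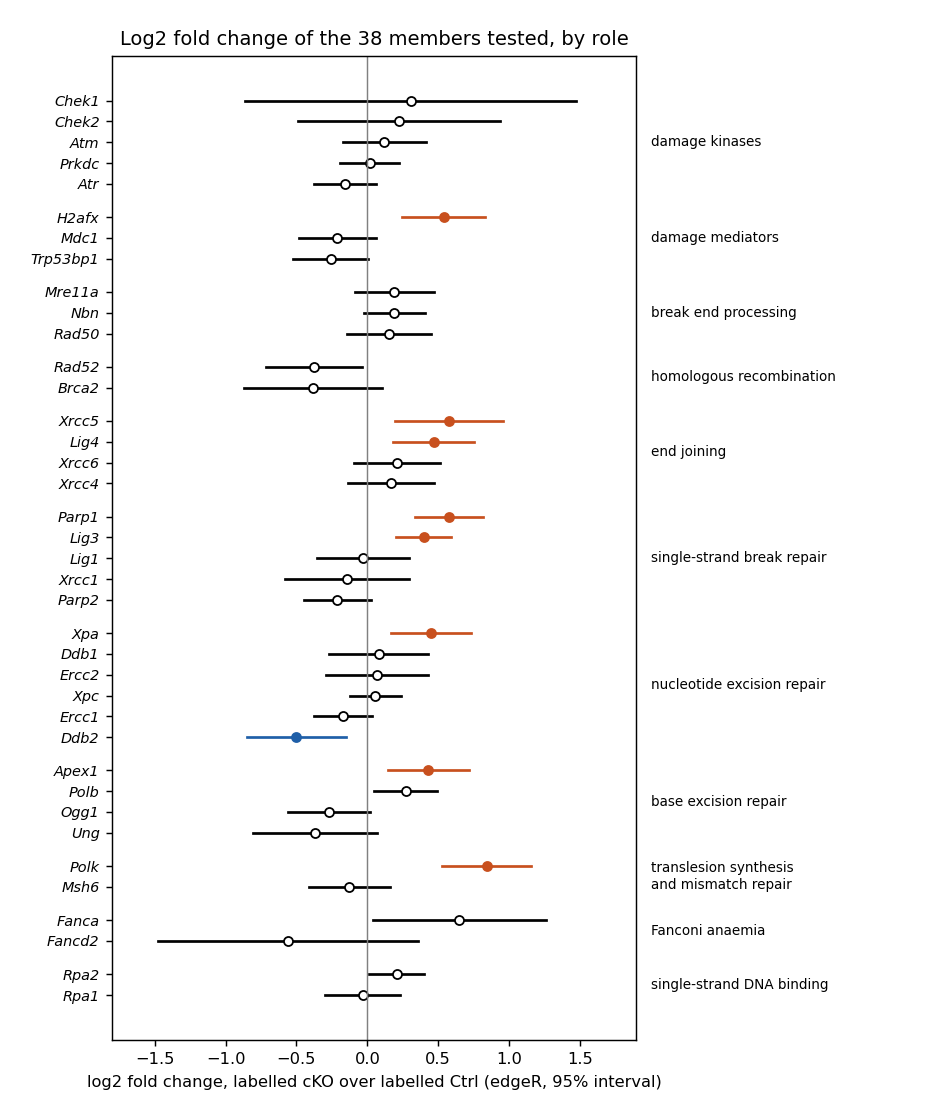
Log2 fold change of the 38 genes tested, labelled cKO over labelled Ctrl, with 95% intervals, grouped by role. Filled orange points are the 8 genes higher in the cKO-labelled libraries at an adjusted p under 0.05, the filled blue point is Ddb2, higher in the Ctrl-labelled ones, and open points did not pass.

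The calls of Polk and Parp1 held under all 14 other settings tried, while each of the other 7 lost its call under 6 to 9 of them. Scaling to total counts moved the median of all genes to -0.27 (log2). Under it 2 of the 38 genes, Parp1 and Polk, were higher in the cKO-labelled libraries (background 4.75%), and 10 were higher in the Ctrl-labelled ones (background 28.7%). These 10 were Atr, Ddb2, Ercc1, Mdc1, Ogg1, Parp2, Rad52, Rpa1, Trp53bp1 and Ung, of which all but Ddb2 are given below as not passing with TMM. Adjusted p-values of H2afx, Xrcc5, Lig4, Lig3, Xpa and Apex1 were then 0.112 to 0.304. Relative to the median of all genes, the median of the 38 stood 0.12 higher (log2) with TMM and 0.11 higher with total counts. With TMM it stood 0.07 higher without Ctrl 1, 0.06 without Ctrl 2 and 0.18 without Ctrl 3.

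**Figure D2:**
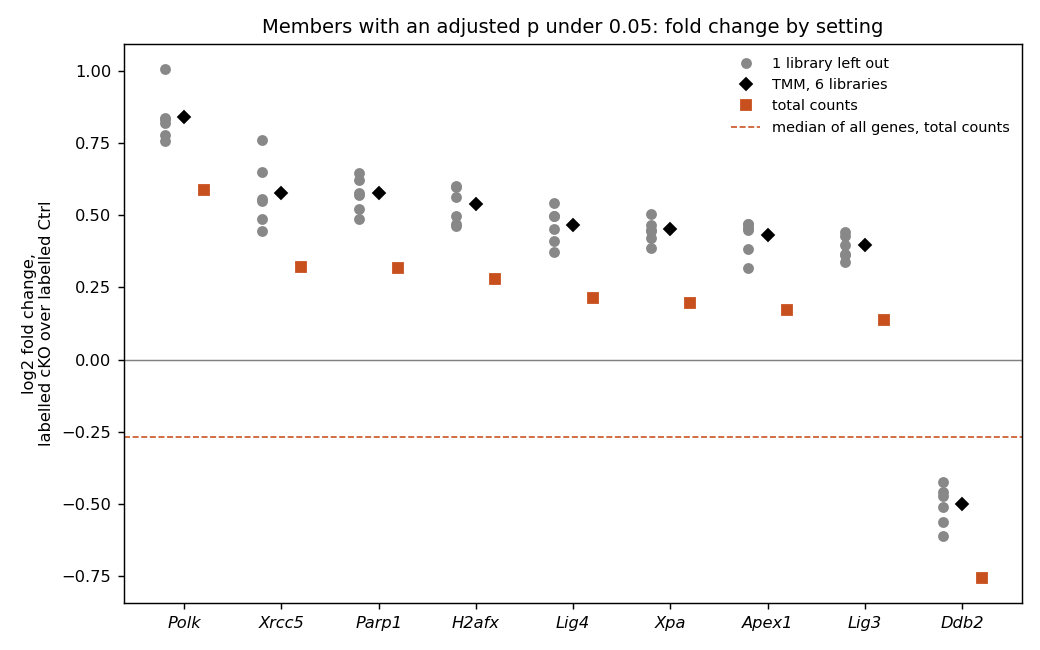
Log2 fold change of the 9 genes with an adjusted p under 0.05, labelled cKO over labelled Ctrl, with TMM and 6 libraries (black diamonds), with 1 library left out (grey) and with total counts (orange squares). The 8 genes above 0 stayed above 0 in these fits and Ddb2 stayed below 0, and the dashed line marks the median of all genes with total counts, at -0.27.

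Of the 8 genes higher in the cKO-labelled libraries 7 had a promoter in the RefSeq table, and the bases in front of their start sites are shown so that the genes that moved one way can be compared by sequence. H2afx and Ddb2 had no entry. Each line holds the 120 bases before the RefSeq start on GRCm38.p6, 5′ to 3′ on the strand of the gene. The windows are chr1:72307301-72307420 on the plus strand for Xrcc5, chr8:9977681-9977800 on the minus strand for Lig4, chr1:180568771-180568890 on the plus strand for Parp1, chr11:82780989-82781108 on the plus strand for Lig3, chr4:46196312-46196431 on the minus strand for Xpa, chr14:50924829-50924948 on the plus strand for Apex1 and chr13:96542580-96542699 on the minus strand for Polk. For Lig4 and Polk, 1 of 2 starts listed is shown. Capitals mark a match to 1 of 5 motifs searched on both strands.
Xrcc5: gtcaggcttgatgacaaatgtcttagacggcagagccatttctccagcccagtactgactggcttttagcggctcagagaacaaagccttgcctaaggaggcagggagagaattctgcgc
Lig4: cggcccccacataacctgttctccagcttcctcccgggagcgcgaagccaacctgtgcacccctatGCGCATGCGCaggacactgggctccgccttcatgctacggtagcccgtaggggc
Parp1: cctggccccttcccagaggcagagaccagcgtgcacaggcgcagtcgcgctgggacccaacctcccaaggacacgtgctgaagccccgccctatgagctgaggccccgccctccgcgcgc
Lig3: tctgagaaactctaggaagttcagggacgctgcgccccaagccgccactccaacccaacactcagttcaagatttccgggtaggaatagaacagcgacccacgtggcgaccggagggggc
Xpa: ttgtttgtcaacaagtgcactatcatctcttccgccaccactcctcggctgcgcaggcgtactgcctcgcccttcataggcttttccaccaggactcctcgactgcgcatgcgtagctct
Apex1: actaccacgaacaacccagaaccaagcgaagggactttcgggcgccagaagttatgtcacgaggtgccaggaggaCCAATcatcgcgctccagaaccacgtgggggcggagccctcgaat
Polk: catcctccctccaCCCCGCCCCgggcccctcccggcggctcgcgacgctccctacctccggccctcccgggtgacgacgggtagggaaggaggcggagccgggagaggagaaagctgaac
The capitals are an NRF1 motif in Lig4, a CCAAT box (CCAAT) in Apex1 and a GC box (GGGGCGGGG, here on the other strand) in Polk. Xrcc5, Parp1, Lig3 and Xpa had no match in these 120 bases.

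The same motifs were counted in the 250 bases before the start for the 31 of the 39 genes with an entry and for 27025 genes in all. A CCAAT box stood in 15 of the 31 (48.4%) and in 37.5% of all promoters. The GC box was present in 7 (22.6%, against 11.8%), and an ETS motif (CCGGAAG) in 4 (12.9%, against 7.83%). An E2F motif (TTTCCCGC, TTTCGCGC, TTTGCCGC or TTTGGCGC) was found in 4 (12.9%, against 2.16%), which were Chek2, Mdc1, Brca2 and Xrcc6. NRF1 motifs were in Atm, Lig4 and Ercc2 (9.68%, against 4.23%). These matches describe the letters of the windows.

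Levels were compared between genes as CPM per kb of exon, with exons from GENCODE M21. Ddb1, the adaptor of a ubiquitin ligase that also recognises lesions, was the most abundant at 58.5 to 86.2 CPM per kb over the 6 libraries. Polb, the gap-filling polymerase of base excision repair, followed at 30.7 to 43.0 CPM per kb. Parp1 was next at 16.8 to 30.0 CPM per kb, a range that overlapped that of Rpa1 at 18.0 to 22.6. At the other end, Brca1 was at 0.0110 to 0.0661 CPM per kb, and mean levels of Fanca, Chek1, Fancd2 and Brca2 were 0.0790, 0.0897, 0.0990 and 0.168 CPM per kb. In all, 31 of the 39 reached a mean of 1 CPM per kb.

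**Figure D3:**
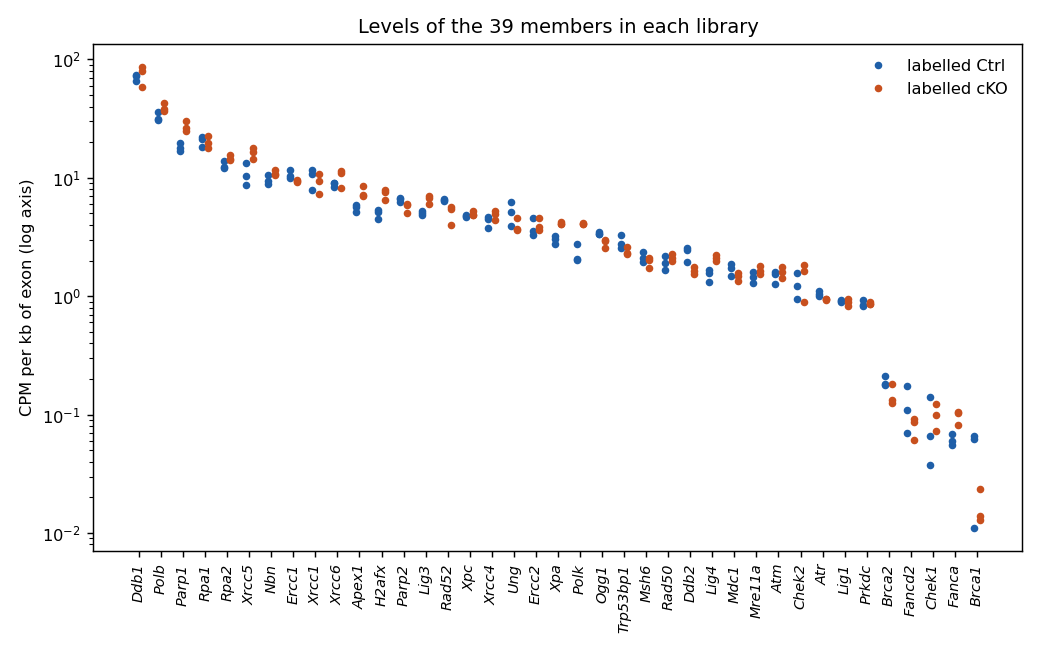
Levels of the 39 genes in each of the 6 libraries as CPM per kb of exon, on a log axis, ordered by the mean. Ddb1 stands highest, Brca1 lowest, and the 5 genes at the right lie below 0.3 CPM per kb.

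None of the 5 damage kinases passed edgeR's test, a number too small to set against the 12.6% and 11.8% of all genes called. Atm, the kinase of double-strand breaks, was at 16.1, 12.7 and 15.4 CPM in the Ctrl-labelled libraries and at 15.9, 14.4 and 17.7 CPM in the cKO-labelled ones. The groups overlapped, with a log2 fold change of 0.12 ± 0.13 (SE, adjusted p = 0.518) and a 95% interval of -0.17 to 0.41. Scaled to total counts, its log2 fold change was -0.14. Prkdc, the catalytic subunit of DNA-PK, was level at 10.4, 10.6 and 11.7 CPM against 10.9, 11.2 and 10.9 CPM. Its log2 fold change was 0.02 ± 0.09 (adjusted p = 0.915, 95% interval -0.20 to 0.23), and its sign turned with total counts, at -0.24. Atr, the kinase of stalled replication, was lower in each cKO-labelled library (7.59 to 7.85 CPM) than in the Ctrl-labelled ones (8.20 to 9.04 CPM), but its log2 fold change of -0.16 missed the threshold (adjusted p = 0.261). With total counts Atr passed, at -0.41. The median of all genes was then -0.27, to be read beside the total-count values of Atm and Prkdc as well. The checkpoint kinases downstream were less well measured. Chek1 had 6 to 20 counts in the Ctrl-labelled libraries and 10 to 21 in the others, with an interval of -0.86 to 1.48 (log2), and Chek2 gave 0.22 with an interval of -0.49 to 0.94. Counts of RNA do not show phosphorylation of these kinases.

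H2afx, which encodes the histone variant H2A.X that the damage kinases phosphorylate around breaks, was at 7.15, 7.46 and 6.15 CPM in the Ctrl-labelled libraries and at 10.9, 8.91 and 10.4 CPM in the cKO-labelled ones. All cKO-labelled libraries lay above all others. The log2 fold change was 0.54 ± 0.13 (adjusted p = 0.0223), a 1.45-fold difference. Of its 1384 exon bases, 141 are shared with Gm44335 on the opposite strand. Without Ctrl 1, cKO 1 or cKO 3 the adjusted p was 0.0666, 0.0856 and 0.0866. Mdc1, which binds phosphorylated H2A.X, and Trp53bp1, which steers breaks towards end joining, did not share this direction. Their log2 fold changes were -0.21 (adjusted p = 0.216) and -0.26 (adjusted p = 0.136), and their groups overlapped. Trp53bp1 shares 2130 of its 9621 exon bases with Tubgcp4 on the opposite strand.

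Rad50, Mre11a and Nbn encode the complex that tethers and trims broken ends. All 3 genes had positive log2 fold changes, of 0.15 to 0.19 with SE of 0.09 to 0.13, and none passed (adjusted p 0.168 to 0.400). Each turned negative under 1 of the 14 other settings, at -0.097, -0.066 and -0.068. Within each library the counts per kb of Rad50 relative to Mre11a were 1.27, 1.30 and 1.36 in the Ctrl-labelled libraries and 1.10, 1.37 and 1.39 in the cKO-labelled ones. The ranges overlapped, as did those of Nbn relative to Mre11a. Such ratios within a library do not depend on how libraries are scaled. They were formed for 10 pairs of partner genes chosen after the values were seen.

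Of the homologous recombination genes, both tested had lower levels in the cKO-labelled libraries, and neither passed, which with 2 genes cannot be set against the share of all genes. Brca1 had 17, 3 and 15 counts in the Ctrl-labelled libraries and 3, 6 and 4 in the cKO-labelled ones, so Ctrl 2 was as low as the others. Without Ctrl 2, Brca1 was tested and passed with a fold over 2, higher in the Ctrl-labelled libraries. Brca2, a gene central to this route, had a log2 fold change of -0.38 ± 0.21 (adjusted p = 0.216). Rad52, which anneals complementary strands, was at 11.1, 10.7 and 11.2 CPM against 9.23, 6.70 and 9.52 CPM, with no overlap, and its adjusted p was 0.101. Among 24 markers of dividing cells tested, 3 were higher in the cKO-labelled libraries (12.5%, against 12.6% of all genes) and 5 in the Ctrl-labelled ones (20.8%, against 11.8%), and their part in these values was not tested.

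Of the 4 end joining genes tested, 2 were higher in the cKO-labelled libraries, too few genes to set against the 12.6% of all genes. Xrcc5, the KU80 subunit of the Ku ring that caps broken ends, was at 22.4, 26.7 and 34.4 CPM in the Ctrl-labelled libraries and at 46.0, 36.5 and 42.1 CPM in the cKO-labelled ones. The groups did not overlap, though Ctrl 3 came close to cKO 2. The log2 fold change was 0.58 ± 0.16 (adjusted p = 0.0412), and without Ctrl 1, Ctrl 2, cKO 1 or cKO 3 the adjusted p was 0.108 to 0.123. Its partner Xrcc6, which encodes KU70, was at 27.8, 30.2 and 30.1 CPM against 38.2, 27.3 and 36.2 CPM. Here cKO 2 was the lowest of all libraries, and the log2 fold change of 0.21 ± 0.13 did not pass (adjusted p = 0.276). Without cKO 2, Xrcc6 did pass, in the same direction.

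Lig4, the ligase that seals the joined ends, was at 6.82, 8.20 and 8.70 CPM in the Ctrl-labelled libraries and at 11.6, 10.9 and 10.2 CPM in the cKO-labelled ones, again with no overlap. Its log2 fold change was 0.47 ± 0.12 (adjusted p = 0.0313). The call was lost without Ctrl 1, Ctrl 2 or any cKO-labelled library, with adjusted p-values of 0.0558 to 0.0994. Xrcc4, the scaffold of that ligase, had a log2 fold change of 0.17 ± 0.13 (adjusted p = 0.375).

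Ratios within libraries set the subunits of these complexes against each other. Xrcc5 relative to Xrcc6, as counts per kb, was 1.05, 1.15 and 1.48 in the Ctrl-labelled libraries and 1.56, 1.74 and 1.51 in the cKO-labelled ones, 1.32-fold higher in the latter. Lig4 relative to Xrcc4 was 0.348, 0.351 and 0.357 against 0.510, 0.425 and 0.377, 1.23-fold higher. The groups did not overlap in 7 of the 10 pairs, these included, which is a description, since the pairs were chosen after the values were seen and single genes already did not overlap in 22.0% and 21.9% of all genes in the 2 directions. Each of the 7 reached the smallest p that the exact two-sided permutation test allows, 0.1, which is 0.143 after Benjamini-Hochberg adjustment over the 10 pairs.

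**Figure D4:**
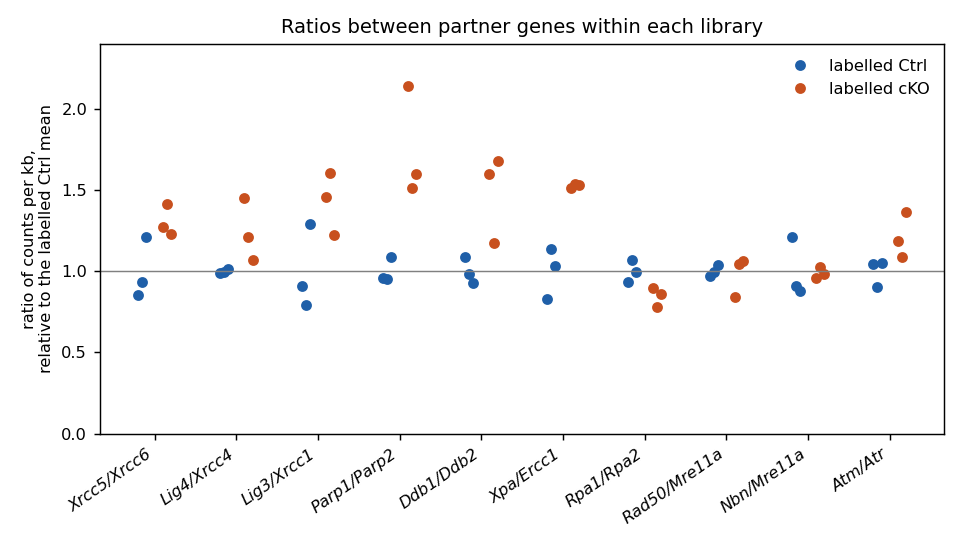
Counts per kb of 1 gene relative to its partner within each library, divided by the mean of the Ctrl-labelled libraries, for 10 pairs. Points are libraries, 3 per labelled group, and the groups do not overlap in 7 of the 10 pairs, with Parp1/Parp2 1.73-fold and Xpa/Ercc1 1.54-fold higher in the cKO-labelled libraries.

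Of the 5 genes of single-strand break repair, Parp1 and Lig3 were higher in the cKO-labelled libraries. Here too the genes are too few to set against the 12.6% of all genes. Parp1 was at 64.9, 69.6 and 76.9 CPM in the Ctrl-labelled libraries and at 116, 96.3 and 103 CPM in the cKO-labelled ones. The lowest library labelled cKO was above the highest labelled Ctrl, and the log2 fold change was 0.58 ± 0.10 (adjusted p = 0.00918, 1.49-fold). Leaving out each library in turn gave 0.49 to 0.65 (log2), and the call held each time. Parp2, the paralog with a similar role at breaks, stood the other way, at 11.9, 12.8 and 12.4 CPM against 9.54, 11.2 and 11.3 CPM. It missed the threshold, with a log2 fold change of -0.21 ± 0.10 (adjusted p = 0.164). Parp1 relative to Parp2 was 2.67, 2.66 and 3.02 in the Ctrl-labelled libraries and 5.96, 4.22 and 4.44 in the cKO-labelled ones, which was 1.73-fold higher and the largest shift among the 10 pairs.

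Lig3, the ligase of nicks and of mitochondrial DNA, was at 33.1, 31.6 and 34.5 CPM in the Ctrl-labelled libraries and at 46.2, 39.7 and 44.6 CPM in the cKO-labelled ones. The groups were apart, with a log2 fold change of 0.40 ± 0.08 (adjusted p = 0.0159). Without Ctrl 1, Ctrl 2, cKO 1 or cKO 3 the adjusted p was 0.0588 to 0.0657. Of its exon bases, 27.9% are shared with Rffl on the opposite strand, which was itself higher in the cKO-labelled libraries (log2 fold change 0.75, adjusted p = 0.00729). Whether the counting used strand is not given in the sources used here, so Lig3 is uncertain to that extent. Xrcc1, the scaffold that holds LIG3, had a log2 fold change of -0.14 ± 0.19 (adjusted p = 0.609), and Lig1, the ligase of replication, had -0.03 ± 0.14 (adjusted p = 0.884).

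Nucleotide excision repair removes bulky and light-induced lesions, and its genes went both ways. Xpa, the scaffold that checks the lesion, was at 3.93, 4.63 and 4.40 CPM in the Ctrl-labelled libraries and at 5.87, 5.82 and 6.04 CPM in the cKO-labelled ones. The cKO-labelled libraries lay close together and above the others, with a log2 fold change of 0.45 ± 0.12 (adjusted p = 0.0340). Leaving out any 1 library ended the call, with adjusted p-values of 0.0553 to 0.117. Xpa shares 5.37% of its exon bases with Ncbp1, which was higher in the Ctrl-labelled libraries (log2 fold change -0.30, adjusted p = 0.0313).

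Ddb2, the damage-binding partner of DDB1, was at 4.52, 5.67 and 5.93 CPM in the Ctrl-labelled libraries and at 4.06, 3.77 and 3.57 CPM in the cKO-labelled ones. The groups did not overlap, with Ctrl 1 nearest to the others. Its log2 fold change was -0.50 ± 0.15 (adjusted p = 0.0482). The adjusted p was 0.0768 to 0.137 without Ctrl 2, Ctrl 3 or any cKO-labelled library, and 0.0515 with DESeq2's size factors. The 26.7% of its exon bases shared with Acp2 on the opposite strand belong to a gene that did not pass (log2 fold change 0.19, adjusted p = 0.144).

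Ddb1 was at 291, 329 and 325 CPM against 384, 261 and 353 CPM, so that the cKO-labelled libraries were both highest and lowest (log2 fold change 0.08 ± 0.15, adjusted p = 0.731). Ddb1 relative to Ddb2 was 33.6, 30.3 and 28.5 in the Ctrl-labelled libraries and 49.3, 36.1 and 51.6 in the cKO-labelled ones, 1.47-fold higher. Ercc1, a subunit of the nuclease that cuts on the 5′ side of the lesion, had a log2 fold change of -0.17 (adjusted p = 0.191). The helicase Ercc2 had 0.07 (adjusted p = 0.776), and the damage sensor Xpc had 0.06 ± 0.08 (adjusted p = 0.615). Ercc2 shares 1246 of its 3578 exon bases with other genes, among them Klc3 on the opposite strand. The interval of Xpc was -0.12 to 0.24 (log2).

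Base excision repair begins with glycosylases that cut out a damaged base. Apex1, the endonuclease that cuts the site they leave, was at 7.30, 7.07 and 6.43 CPM in the Ctrl-labelled libraries and at 10.6, 8.80 and 8.63 CPM in the cKO-labelled ones. The groups did not overlap, and the log2 fold change was 0.43 ± 0.12 (adjusted p = 0.0412). Leaving out any 1 library gave adjusted p-values of 0.0566 to 0.134. Apex1 shares 70.8% of its exon bases with the gene listed as Tmem55b on the opposite strand, which did not pass (log2 fold change -0.07, adjusted p = 0.644), so its own level is uncertain. The glycosylases Ogg1, for oxidised guanine, and Ung, for uracil, had log2 fold changes of -0.27 (adjusted p = 0.148) and -0.37 (adjusted p = 0.186). Polb was at 37.4, 36.9 and 42.9 CPM against 43.9, 45.6 and 51.6 CPM, with no overlap, and missed the threshold (log2 fold change 0.27 ± 0.10, adjusted p = 0.0799). It passed without Ctrl 3.

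Polk had the largest fold of the 9 genes. It encodes DNA polymerase kappa, which copies past bulky lesions. It was at 8.89, 8.61 and 11.9 CPM in the Ctrl-labelled libraries and at 17.9, 17.4 and 17.4 CPM in the cKO-labelled ones. The cKO-labelled libraries were nearly equal and far above the others, and the log2 fold change was 0.84 ± 0.13 (adjusted p = 0.00728, 1.79-fold). It was 0.76 to 1.01 (log2) when each library was left out in turn, with the upper value, which passes a fold of 2, without Ctrl 3. No exon of another gene overlaps its exons in GENCODE M21. The gene spans chr13:96480690-96542579 on the minus strand of GRCm38. Msh6, the mismatch sensor beside it in this group, had a log2 fold change of -0.13 ± 0.12 (adjusted p = 0.477).

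Fanca and Fancd2, of the pathway that unhooks crosslinks, were near the floor of the data. Fanca had 14, 16 and 16 counts in the Ctrl-labelled libraries and 24, 20 and 29 in the cKO-labelled ones. The CPM did not overlap, and its log2 fold change of 0.65 ± 0.26 was the largest among the genes that did not pass (adjusted p = 0.111). Fancd2 had 15 to 40 and 13 to 21 counts, with an interval of -1.48 to 0.36 (log2), which at this depth includes a 2-fold difference.

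Rpa1 and Rpa2 encode subunits of the protein that coats single-stranded DNA. Rpa1 was at 94.0 to 113 CPM against 92.4 to 116 CPM (log2 fold change -0.03 ± 0.11, adjusted p = 0.863). It passed with total counts at -0.29, where the median of all genes was -0.27. Rpa2 was at 22.0, 22.5 and 24.9 CPM against 28.3, 26.0 and 25.9 CPM, with no overlap but an adjusted p of 0.116. Rpa1 relative to Rpa2 was 1.18-fold higher in the Ctrl-labelled libraries, the 1 pair of the 7 in that direction. Atm relative to Atr was 1.21-fold higher in the cKO-labelled libraries, and Xpa relative to Ercc1 was 1.54-fold higher there.

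**Figure D5:**
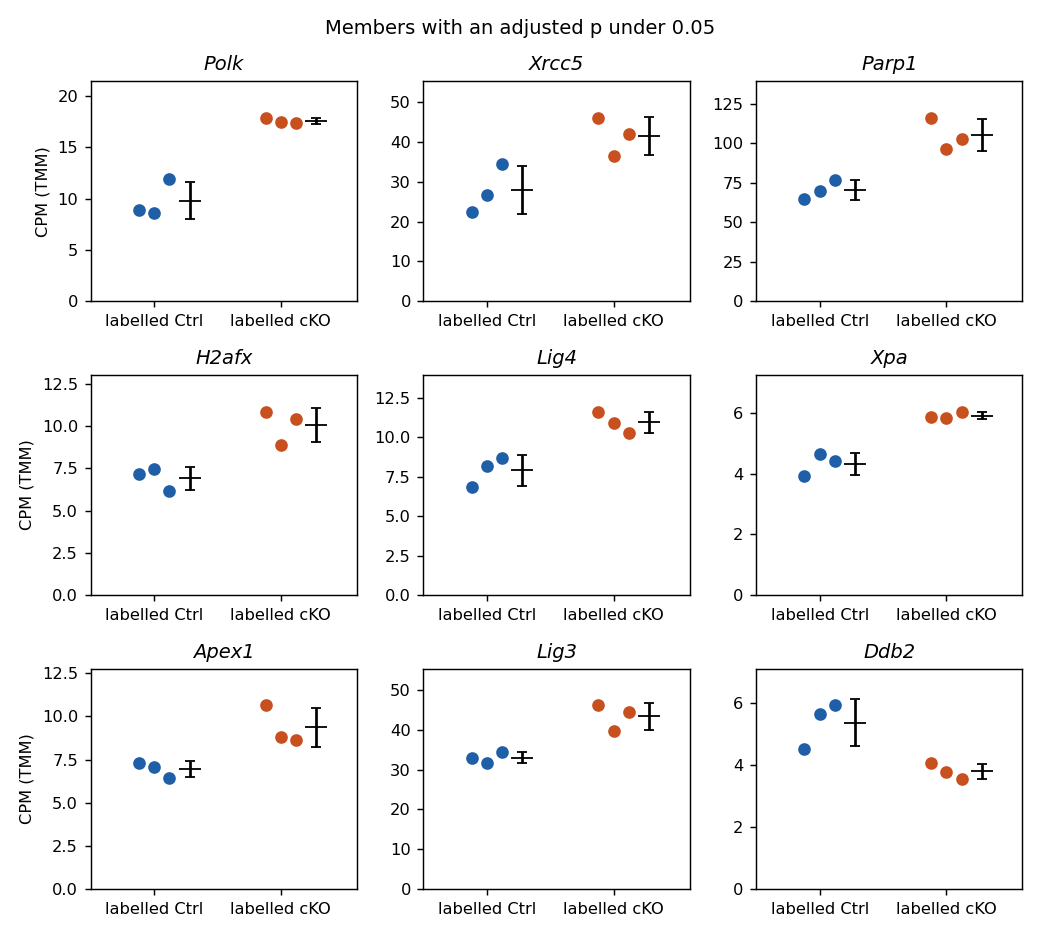
CPM of the 9 genes with an adjusted p under 0.05 in each library, with the mean and SD of each labelled group (n = 3) beside the points. In 8 genes the 3 cKO-labelled libraries lie above the 3 labelled Ctrl, and in Ddb2 they lie below.

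A wider list of 117 other repair genes was read beside the 39. Of the 110 tested, 17 were higher in the cKO-labelled libraries (15.5%, near the 12.6% of all genes) and 4 in the Ctrl-labelled ones (3.64%, against 11.8%), with a median log2 fold change of 0.15. With total counts these numbers were 1 and 15, with glmTreat against a fold of 1.2 they were 2 and 0, and the first was 5 without Ctrl 1 or Ctrl 2, 11 without Ctrl 3, 6 without cKO 1 and 4 without cKO 3. The second was 0 to 2 with each library left out. The list of translesion synthesis and direct reversal held 5 of the 17 among 11 tested (45.5%, against 12.6% of all genes). This share is a description, since the lists were chosen with earlier results of these data known. The 5 were the polymerase genes Polh, Rev3l and Rev1, and Ube2a and Rrm2b. Ube2a encodes an enzyme that marks PCNA for bypass, and Rrm2b a subunit of ribonucleotide reductase. The other nucleotide excision repair genes also held 5, among 21 tested (23.8%). The lists of homologous recombination (2 of 21), checkpoint and signalling (1 of 19), single-strand break and base excision repair (1 of 16), Fanconi anaemia (1 of 10), end joining (1 of 6) and mismatch repair (1 of 6) held the rest. Fan1, a nuclease of crosslink repair, had the smallest p, at 6.21, 8.11 and 6.10 CPM against 13.9, 12.4 and 11.9 CPM (log2 fold change 0.90 ± 0.14, adjusted p = 0.00650).

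Next came Mlh3, a mismatch repair subunit (log2 fold change 0.59, adjusted p = 0.00750), and Gtf2h1, a subunit of the repair and transcription factor TFIIH (0.43, adjusted p = 0.00871). The genes higher in the Ctrl-labelled libraries were Rad21, a cohesin subunit (log2 fold change -0.29, adjusted p = 0.0287), Recql4, a helicase, Ube2t, the conjugating enzyme of the Fanconi anaemia pathway, and Dclre1c, the end-processing nuclease Artemis (-0.56, adjusted p = 0.0431). Recql4 and Ube2t also passed a fold of 2, with log2 fold changes of -1.04 (adjusted p = 0.0314) and -1.01 (adjusted p = 0.0397). Recql4 had 39, 39 and 39 counts in the Ctrl-labelled libraries and 15, 15 and 28 in the cKO-labelled ones.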

How the data were processed

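Bulk RNA-Seq counts of 6 GP muscle libraries, 3 labelled Ctrl and 3 labelled cKO, were analysed. The authors deposited raw counts per gene without normalization. Per the submitters' processing notes and the study's methods, reads were checked with FastQC 0.11.8, trimmed with Trimmomatic 0.39, aligned to mm10 with HISAT2 2.1.0 and counted with featureCounts 1.6.2. The annotation and the strand setting are not given in the sources used here. mm10 is GRCm38, so positions, exon lengths and overlaps were taken from GENCODE M21 and promoters from RefSeq (GRCm38.p6). Groups came from the sample labels, which name separate mice, and replicates differed by more than counting error (chi-square per degree of freedom 30.9 to 108).

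Counts were fitted in R 4.3.3 with edgeR 4.0.16 (TMM, filterByExpr, glmQLFit and glmQLFTest), on 14180 genes at once, with Benjamini-Hochberg adjustment over all of them and a threshold of 0.05. SE were derived from the F statistic. The steps were tested on simulated data. The study used DESeq with a fold change over 2 and an adjusted p under 0.05, and both marks are given here. The 39 genes, the other lists and the partner pairs were chosen with earlier results of these data known. Of the 39, values in each library are given for genes with an adjusted p under 0.05 or a fold over 2 and for Atm, H2afx, Parp1 and Prkdc. Other genes shown by library were chosen after their values were seen. Of the other repair genes, the 4 of smallest p in each direction and those past a fold of 2 are named, except 1 gene that is not reported here, and of the marker lists the 2 of smallest p. Other settings were scaling by total counts or by DESeq2's size factors, a filter of 10 counts in each library or none, the Wald test of DESeq2 1.42.0, a robust fit, glmTreat against a fold of 1.2, the mouse number as a block and each library left out. Partner ratios were added after seeing the data and compared by exact two-sided permutation tests.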

Additional observations from a re-analysis of the deposited data

How the results depend on the processing

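The number of the 39 genes higher in the cKO-labelled libraries, 8 as reported, was 2 with total counts, 3 with the replicate block, 2 with glmTreat and 2 to 7 when each library was left out, with 3 in the absence of Ctrl 2 and 2 in that of Ctrl 1, cKO 1 or cKO 3. The number higher in the Ctrl-labelled libraries, 1 as reported, was 10 with total counts, 0 with DESeq2's size factors, without a filter, with the replicate block and with glmTreat, and 0 to 1 with each library left out. The number past a fold of 2 was 0 to 1 with each library left out. Of the other repair genes, 17 as reported, 1 was higher in the cKO-labelled libraries with total counts, 6 with the replicate block, 2 with glmTreat and 4 to 15 with each library left out. For those higher in the Ctrl-labelled libraries, 4 as reported, the numbers were 15, 0, 0 and 0 to 2 in the same order. The shares of all genes moved as well. Those higher in the cKO-labelled libraries, 12.6% as reported, were 4.75% with total counts, 6.54% with the replicate block, 4.77% with glmTreat and 5.33% to 12.3% with each library left out, and those higher in the Ctrl-labelled ones, 11.8% as reported, were 28.7%, 6.85%, 5.24% and 5.46% to 12.5%. The median log2 fold change of the 38 genes was -0.16 with total counts, where the median of all genes was -0.27. Atm was then at -0.14 and Prkdc at -0.24 (log2), and Prkdc ranged from -0.018 to 0.073 with each library left out. The log2 difference of the ratio of Rad50 to Mre11a ranged from -0.0925 to 0.0772 and that of Nbn to Mre11a from -0.0877 to 0.148. The causes of these shifts were not tested, except that glmTreat asks for a larger difference and a left-out library leaves fewer samples.

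The mouse numbers of the labels gave no sign of pairing. Deviations of same-numbered libraries correlated at 0.084, -0.21 and -0.0020, within the -0.22 to 0.19 of differently numbered ones. With 3 libraries per group this cannot show that pairing was absent. With the replicate block the genes higher in the cKO-labelled libraries were Lig3, Parp1 and Polk. With 1 library left out of a group, the other 2 carry its spread. The depth limits Brca1, Chek1, Fanca and Fancd2, each at 40 counts or fewer in every library.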

Other observations

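The marker lists gave the following counts and medians of log2 fold change, labelled cKO over labelled Ctrl, and the genes named are the 2 of smallest p in each. They are read against the 12.6% of all genes called higher in the cKO-labelled libraries and the 11.8% called higher in the Ctrl-labelled ones. The satellite cell list lies near both shares. The endothelial list lies near the second only, with 0 of 10 genes called higher in the cKO-labelled libraries. Muscle fibre genes, mostly genes of fast fibres, had 8 of 12 tested higher in the cKO-labelled libraries and 1 higher in the Ctrl-labelled ones (median 0.63), led by the calcium pump gene Atp2a1 (1.02, adjusted p = 0.00918) and Tnnt3 (0.76, adjusted p = 0.0147). All 9 slow fibre genes had negative values (median -2.38) and 4 passed, with Casq2 at -1.55 (adjusted p = 0.0157) and Atp2a2 at -2.75 (adjusted p = 0.0217). Macrophage genes passed in 10 of 14, higher in the Ctrl-labelled libraries (median -0.89), with C1qb at -0.93 (adjusted p = 0.00155) and Lyz2 at -1.07 (adjusted p = 0.00354).

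Denervation genes had 4 of 9 higher in the Ctrl-labelled libraries and 1 in the cKO-labelled ones (median -1.04), with Ncam1 at -1.97 (adjusted p = 0.00253) and Myh3 at -3.83 (adjusted p = 0.00302). Fibro-adipogenic progenitor genes had 5 of 11 higher in the Ctrl-labelled libraries (median -0.31), with Mfap5 at -1.49 (adjusted p = 0.00177) and Ly6a at -1.13 (adjusted p = 0.00521). Satellite cell and myoblast genes had 1 of 9 in each direction (median 0.24), Myog at -1.89 (adjusted p = 0.000550) and Cdh15 at 0.52 (adjusted p = 0.0107). Genes of dividing cells had a median of -0.29 over 24 tested, with the helicase subunit Mcm6 at -2.85 (adjusted p = 0.000627) and the kinase Aurka at 1.62 (adjusted p = 0.00942).

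Schwann cell genes had 2 of 8 higher in the Ctrl-labelled libraries (median -0.67), Pmp22 at -0.68 (adjusted p = 0.00869) and Ncmap at -0.94 (adjusted p = 0.0216). Of 10 endothelial genes 1 passed (median -0.08), Vwf at -0.38 (adjusted p = 0.0104), with Pecam1 next at -0.17 (adjusted p = 0.175). None of 7 adipocyte genes (median -0.11) passed in edgeR, with Lep at 1.35 (adjusted p = 0.183) and Pparg at -0.28 (adjusted p = 0.408). Of 12 lymphocyte genes listed, 2 had enough counts to be tested and did not pass, Cd79b at -1.14 (adjusted p = 0.123) and Il7r at -0.62 (adjusted p = 0.289). No marker gene listed was at 0 in all 6 libraries.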
